A study of Mus musculus with 14 samples.

Results

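The 10 genes described here write, copy, remove and protect DNA methylation in the mouse oocyte and early embryo: Dnmt1, Dnmt3a, Dnmt3b, Dnmt3l, Tet2, Tet3, Uhrf1, Dppa3, Trim28 and Zfp57. They were taken by gene symbol from the deposited tables, and all 10 were found among the 16196 genes listed at both stages (18507 genes in either table). The RNA came from oocytes at the germinal vesicle (GV) stage, before meiosis resumes, and from ovulated oocytes. WT oocytes were Mff fl/fl and CKO oocytes were Mff fl/fl with Gdf9-Cre, a Cre recombinase driven by an oocyte promoter from early follicles on, so WT and CKO share the floxed allele and differ by the Cre transgene as well as by the deletion. Mff encodes a receptor that brings the fission GTPase DRP1 to mitochondria. Each genotype had 4 libraries at the GV stage and 3 after ovulation, 14 in all. The sources used here give no age, strain background, or number of oocytes or animals behind a library, and p-values therefore reflect the spread between libraries alone, which may be technical.

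The growing oocyte lays down its DNA methylation before the GV stage. DNMT3A is the enzyme that does this, and DNMT3L, which has no catalytic activity of its own, binds and stimulates it. After fertilisation DNMT1 copies methylation at replication once UHRF1 has recognised the hemimethylated site, TET3 oxidises 5-methylcytosine in the zygote, DPPA3 (also called STELLA or PGC7) shields the maternal genome from that oxidation and holds UHRF1 back in the oocyte, and the zinc finger protein ZFP57 with its corepressor TRIM28 (KAP1) keeps imprints methylated while the rest of the genome loses the mark. Ovulated oocytes therefore carry mRNA for proteins whose main work comes later, and a stored mRNA level is not a level of protein or of methylation, neither of which was measured here.

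Libraries held 26575593 to 28847424 estimated counts. Levels are given as CPM, counts scaled to library size with TMM factors over all 14 libraries, and those of the targeted gene followed the labels. Mff measured 477 to 945 CPM in GV WT and 30.1 to 47.2 CPM in GV CKO libraries, and after ovulation 304 to 688 CPM in WT and 31.3 to 54.4 CPM in CKO libraries. All 10 oocyte markers were detected in every group, with a summed level (CPM of library totals, without TMM factors) of 17457 to 28082 at the GV stage and 12068 to 17097 after ovulation. At the GV stage, a first principal component with 43.8% of the variance set WT 2, CKO 1 and CKO 2 apart, and their 100 most abundant genes took 35.2% to 42.4% of counts against 48.2% to 51.1% in the other 5. Stage changes of Dnmt3a, Dnmt3l, Zfp57 and Trim28 are also given without this trio (a setting added once the data had been seen), and without it the stage calls of the other 6 members were as given below. Less RNA per oocyte and fewer oocytes in a library cannot be told apart, since every library is scaled to its own total.

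During meiotic maturation the oocyte does not transcribe, and stored mRNAs gain or lose poly(A) tails under the control of short elements near their 3′ ends. The 3′ ends of the members are therefore shown here, from GENCODE release M21 transcripts on GRCm38 (the assembly of mm10). In the last 50 bases, 9 of 10 members held the polyadenylation hexamer AATAAA or, in Dnmt3b, its variant ATTAAA; Dnmt3l held neither. Either hexamer was found in 78.0% of 18787 genes with a 3′ UTR of at least 50 bases. A cytoplasmic polyadenylation element, searched as TTTTAT or TTTTAAT on the transcript strand in the last 150 bases of the 3′ UTR, was found in 4 members (Dnmt1, Dnmt3a, Tet2 and Tet3, the last with 3 matches) and in 22.5% of those genes. The windows of 30 bases below are those of 7 members that hold the element, or hold a hexamer and changed between the stages in both genotypes. Uhrf1, which changed in CKO alone, and Dnmt3l, which has no hexamer, are not shown. Capitals mark the element, the hexamer or, in Tet3 and Tet2, the overlap of TTTTAAT with AATAAA. The windows of Dnmt3a and Dnmt1 start at the element and cut off the AATAAA, which begins 28 and 22 bases from the transcript end.
Tet3 (chr6:83362399-83362428, minus strand): tctttaaaatattgtgggtgTTTTAATAAA
Tet2 (chr3:133463702-133463731, minus strand): tgataacgccatgtgagtgtTTTTAATAAA
Dnmt3a (chr12:3914389-3914418, plus strand): TTTTATtttcgctataaatagagcttcaat
Dnmt1 (chr9:20907227-20907256, minus strand): TTTTATatgttgtaatatttcttcaaaata
Trim28 (chr7:13030988-13031017, plus strand): aatggtttttacttctgtggatttAATAAA
Zfp57 (chr17:37010563-37010592, plus strand): ccaccccttacccccaccccacaaAATAAA
Dnmt3b (chr2:153687684-153687713, plus strand): gcccagagtttacctttctggttgATTAAA

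Tet3 and Tet2 share the same 10 last bases of this window, in which the element runs into the hexamer. In Zfp57, Trim28 and Dnmt3b the hexamer stands alone. What is found depends on the transcript taken. That of Zfp57 has a 3′ UTR of 114 bases and stops before the annotated end of the gene, 37010729 in GRCm38.p6. A match describes letters only. Across all genes, the 3127 tested genes with the element had a median log2 fold change of 0.73 from GV to ovulated in WT, and the 9317 without it had −0.49, with median transcript lengths of 3260 and 2939 bases. In CKO the medians were 0.35 and −0.35. For ovulated CKO over WT they were −0.20 in 2984 genes with the element and 0.09 in 8397 without it. The members went both ways in WT from GV to ovulated. With the element, Tet3 was at 2.23, Tet2 at 1.49, Dnmt3a at 0.71 and Dnmt1 at −0.59. Without it, Trim28 was at 2.62, Dnmt3b at 1.72, Dppa3 at 0.23, Uhrf1 at 0.07, Zfp57 at −2.07 and Dnmt3l at −2.50. Tail length was not measured, and its part in the levels below was not tested.

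Per unit of transcript length, Dppa3 was by far the most abundant member and Tet2 the least, in all 4 groups. On the deposited FPKM, the only scale on which genes are compared with each other here, Dppa3 measured 5341 ± 988 in GV WT (SD, n = 4), rank 11 of 16196 genes, and 11086 ± 2725 in ovulated CKO (SD, n = 3), rank 2. Zfp57 came next in every group, at 683 ± 107 FPKM in GV WT and 227 ± 45.0 FPKM in ovulated WT, and its range overlapped neither that of Dppa3 nor that of the member below it. Dnmt3l (99.7 ± 13.2 FPKM), Dnmt1 (96.9 ± 26.1 FPKM) and Uhrf1 (70.7 ± 7.09 FPKM) followed in GV WT as neighbours whose ranges overlapped in turn. Below them, Tet3 (21.5 ± 9.04 FPKM), Trim28 (12.2 ± 8.97 FPKM) and Dnmt3a (7.29 ± 0.697 FPKM) also overlapped in turn, and Dnmt3b (1.80 ± 0.264 FPKM) and Tet2 (0.10 ± 0.068 FPKM) stood clear of their neighbours. In ovulated WT, Tet3 had moved to the third place (131 ± 40.6 FPKM) and Dnmt3l to the seventh (25.2 ± 7.74 FPKM). Tet3, Uhrf1, Trim28 and Dnmt1 then overlapped in turn between 131 and 86.7 FPKM. The order in ovulated CKO differed from that in ovulated WT only in the 4 places after Zfp57, where Uhrf1, Dnmt1, Tet3 and Trim28 overlapped in turn.

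**Figure D1:**
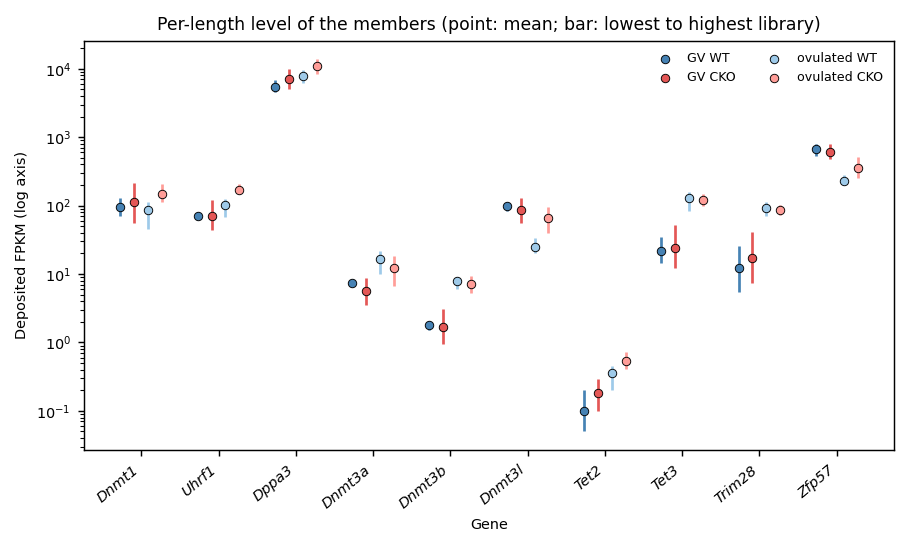
Deposited FPKM of the 10 genes on a log axis, with the mean of each group as a point and the lowest to highest library as a bar. Dppa3 lies at 4524 FPKM or more in every library and Tet2 below 1 FPKM, and every ovulated library is above every GV library in Tet3 and Trim28. Zfp57 is lower after ovulation in WT, while in CKO 1 ovulated library, at 507 FPKM, reaches into the GV range of 478 to 786 FPKM.

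From the GV to the ovulated stage most members changed, some up and some down. GV and ovulated libraries were deposited as separate sets with no library in common. A stage change therefore cannot be told apart from any difference in preparation or processing between the sets. In WT, 5 members rose (Dnmt3a, Dnmt3b, Tet2, Tet3 and Trim28) and 2 fell (Dnmt3l and Zfp57) in edgeR's quasi-likelihood test, called at a Benjamini-Hochberg adjusted p under 0.05, while 66.4% of all 13199 genes tested were called, 30.3% higher and 36.2% lower. In CKO, 5 members rose (Dnmt3b, Tet2, Tet3, Uhrf1 and Trim28) and the same 2 fell, while 54.4% of all genes were called, 23.2% higher and 31.2% lower. The stages did not overlap in 8 members in WT and 6 in CKO, and in 68.7% and 52.4% of all genes. The share of members called thus lies near that of all genes in WT. Summed markers of other cells, on library totals, were higher after ovulation in WT, and in CKO those of blood, immune and stromal cells were too. Those of granulosa and cumulus cells were at 502 to 642 CPM in GV WT and 970 to 1249 CPM in ovulated WT, and at 550 to 616 CPM and 495 to 896 CPM in CKO. Those of blood, immune and stromal cells were at 23.0 to 44.2 CPM in GV WT and 82.6 to 139 CPM in ovulated WT, and at 25.3 to 42.7 CPM and 54.9 to 104 CPM in CKO. Of the first list 19 of 21 genes were listed in GV and 17 in ovulated oocytes, and of the second 10 of 10 and 6; Ptx3 was at 0 in both WT groups, Ptprc in GV WT, and Gja1, Inhbb, Tnfaip6 and Hba-a1 in ovulated CKO. Their part in the stage changes was not tested. The median log2 fold change of the members was 0.47 in WT and 0.67 in CKO, against −0.17 and −0.19 over all genes.

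**Figure D2:**
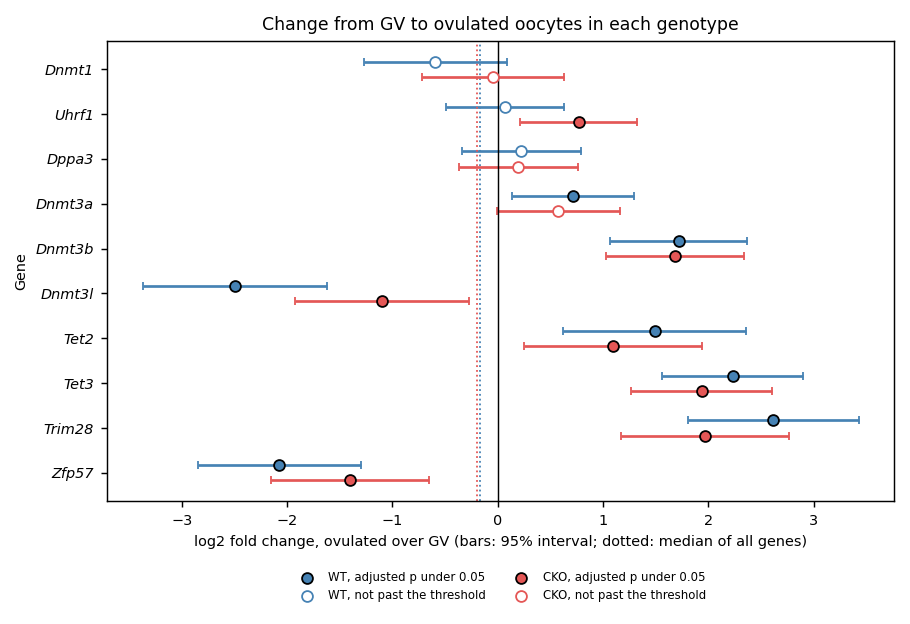
Log2 fold change of each gene from GV to ovulated oocytes in WT and in CKO, with 95% intervals; filled points passed the test and dotted lines mark the median of all genes. Trim28, Tet3 and Dnmt3b rise in both genotypes, and Dnmt3l and Zfp57 fall in both, with Dnmt3l at −2.50 in WT and −1.10 in CKO.

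Dnmt1, which copies methylation at replication, kept a high level with a wide spread. Its libraries measured 750, 558, 526 and 498 CPM in GV WT and 863, 507, 370 and 550 CPM in GV CKO. Ovulated libraries measured 490, 453 and 218 CPM (WT) and 479, 722 and 466 CPM (CKO). All 3 ovulated WT libraries lay below every GV WT library, but the log2 fold change of −0.59 did not pass the test (SE 0.33, edgeR adjusted p = 0.116), and in CKO the stages overlapped (−0.04, SE 0.32, adjusted p = 0.919). The WT fall was called with a trend against transcript length removed in each library (−1.39, adjusted p = 0.000432) and at a mean of at least 10 CPM (−0.78, adjusted p = 0.0467). Counts per gene cannot separate the oocyte form of DNMT1, made from an oocyte promoter, from the somatic form.

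Uhrf1, whose protein recruits DNMT1 to hemimethylated sites, measured 333, 215, 247 and 308 CPM in GV WT and 309, 169, 189 and 278 CPM in GV CKO. After ovulation the values were 342, 318 and 209 CPM in WT and 376, 445 and 389 CPM in CKO. The ovulated CKO libraries were the highest of all 14. The change from GV to ovulated passed the test in CKO (log2 fold change 0.77, SE 0.26, edgeR adjusted p = 0.0201) and not in WT (0.07, SE 0.27, adjusted p = 0.824). A test of the difference between these changes did not pass (interaction 0.70, SE 0.38, adjusted p = 0.399). The CKO call was lost without GV CKO 2, GV CKO 3 or ovulated CKO 2 (adjusted p = 0.0608, 0.0632 and 0.0579).

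Dppa3, the protector of maternal methylation, lay between 3302 and 4010 CPM in GV WT and between 3593 and 5077 CPM in GV CKO. After ovulation it lay between 3216 and 5390 CPM in WT and between 4073 and 6605 CPM in CKO. The stages overlapped within each genotype, and the stage changes were 0.23 (SE 0.27, edgeR adjusted p = 0.466) in WT and 0.20 (SE 0.27, adjusted p = 0.558) in CKO. Dppa3 is among the shortest transcripts here, with a length of 564 to 616 bases implied by its counts and FPKM. With the length trend removed, the change became 1.95 (adjusted p = 3.02e-06) in WT and 1.37 (adjusted p = 0.000170) in CKO. It was also called on log2(FPKM + 0.1) in WT (0.56, limma adjusted p = 0.0484) and CKO (0.65, 0.0299). There the medians of all genes were 0.29 and 0.35. On log2(FPKM + 1) it was called in CKO (0.65, limma adjusted p = 0.0303), beside a median of 0.27. The mouse genome holds retrocopies of Dppa3, and 1 of its 14 counts was not whole, so its level is uncertain to the extent that reads were shared.

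Dnmt3a, the enzyme of methylation in the growing oocyte, measured 113, 59.7, 105 and 100 CPM in GV WT and 69.7, 50.3, 74.5 and 85.4 CPM in GV CKO. Its ovulated libraries stood at 179, 164 and 122 CPM in WT and 145, 83.3 and 84.6 CPM in CKO. The WT stages did not overlap and the rise passed the test (log2 fold change 0.71, SE 0.28, edgeR adjusted p = 0.0305), while the CKO stages overlapped through 1 GV library, CKO 4 (0.58, SE 0.28, adjusted p = 0.0874). The CKO rise was called in 7 alternatives: RLE scaling, no filter, DESeq2, the 3 log2 FPKM scales and without ovulated WT 3 and CKO 2 (adjusted p between 0.0224 and 0.0444). The WT call was lost without GV WT 2 (adjusted p = 0.0878), ovulated WT 1 (0.117) or ovulated WT 2 (0.0826), when the 3 outlying GV libraries were dropped (0.0600) and at a mean of at least 10 CPM (0.0841), and the direction turned with the length trend removed (−0.77 in WT and −0.60 in CKO). Dnmt3a counts were not whole in 13 of 14 libraries. The transcript length they imply ran from 9809 to 15532 bases, a coefficient of variation of 16.7% that exceeded that of 96.9% of 8139 genes (median 1.35%). Whether transcripts of different length entered the deposited values in different shares was not tested.

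Dnmt3b, the second de novo methyltransferase, better known for its work in the embryo after implantation, rose in both genotypes from a low base. It measured 6.93 to 10.4 CPM in GV WT and 22.5 to 29.7 CPM in ovulated WT libraries (log2 fold change 1.72, SE 0.31, edgeR adjusted p = 0.000102). In CKO it measured 4.22 to 9.34 CPM at the GV stage and 16.8 to 29.0 CPM after ovulation (1.68, SE 0.31, adjusted p = 0.000229). The stages did not overlap in either genotype, and the changes differed by −0.04 (SE 0.44, adjusted p = 0.973).

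Dnmt3l (Entrez gene 54427, chromosome 10, 78042287 to 78063622 in GRCm38.p6), the cofactor of DNMT3A, fell. Its GV libraries measured 234, 109, 191 and 252 CPM in WT and 74.0, 98.9, 200 and 253 CPM in CKO, and its ovulated libraries 45.3, 27.3 and 31.9 CPM in WT and 82.1, 87.1 and 49.8 CPM in CKO. The lowest GV values belong to WT 2, CKO 1 and CKO 2, the 3 libraries that stood apart. In WT the stages did not overlap (log2 fold change −2.50, SE 0.42, edgeR adjusted p = 4.83e-05). In CKO the ovulated libraries reached above GV CKO 1, and the fall passed the test at −1.10 (SE 0.39, adjusted p = 0.0245) but was not called without GV CKO 3 (adjusted p = 0.0631), GV CKO 4 (0.10), ovulated WT 3 (0.0522) or ovulated CKO 3 (0.110), nor without ovulated WT 3 and CKO 2 together (0.0566). It was −0.35 on log2(FPKM + 1), where the median of all genes was 0.27 (adjusted p = 0.357), and −0.17 with the length trend removed (adjusted p = 0.680). Without the 3 outlying GV libraries it was −1.64 in CKO (adjusted p = 0.000139) and −2.71 in WT (adjusted p = 4.29e-07).

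Tet3, the dioxygenase that acts on the zygotic genome, rose in both genotypes. It measured 251, 313, 274 and 219 CPM in GV WT and 1354, 1502 and 861 CPM in ovulated WT, a log2 fold change of 2.23 (SE 0.32, edgeR adjusted p = 1.03e-05). In CKO it measured 433, 200, 178 and 223 CPM at the GV stage and 1254, 725 and 984 CPM after ovulation (1.93, SE 0.32, adjusted p = 8.06e-05). Every ovulated library exceeded every GV library of either genotype. With the length trend removed the rise was 0.82 in WT and 0.90 in CKO, and it kept its call.

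Tet2, a related dioxygenase, was close to the limit of detection, with 12 to 74 counts per GV library and 47 to 182 counts per ovulated library. Its level was 0.982 ± 0.384 CPM in GV WT and 2.79 ± 0.972 CPM in ovulated WT (SD, n = 4 and 3), a log2 fold change of 1.49 (SE 0.41, edgeR adjusted p = 0.00409). In CKO it was 1.71 ± 0.50 and 3.67 ± 1.34 CPM (1.09, SE 0.40, adjusted p = 0.0285). The stages did not overlap in either genotype, but both calls were lost with the length trend removed (0.25, adjusted p = 0.513, and 0.11, adjusted p = 0.796), and the CKO call without GV CKO 3 (0.0835), GV CKO 4 (0.0676) or ovulated CKO 1 (0.170).

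Zfp57 and Trim28, partners in the protection of imprints, moved in opposite directions. Zfp57, the DNA-binding partner, measured 1823, 738, 1458 and 1536 CPM in GV WT and 389, 286 and 314 CPM in ovulated WT (log2 fold change −2.07, SE 0.37, edgeR adjusted p = 8.65e-05). In CKO it measured 599, 915, 1368 and 1584 CPM and then 328, 549 and 386 CPM (−1.41, SE 0.36, adjusted p = 0.00297). The stages did not overlap, although WT 2, CKO 1 and CKO 2 were again the lowest GV libraries, and the CKO call was lost with the length trend removed (−0.54, adjusted p = 0.123). Without those 3 libraries the changes were −2.30 in WT (adjusted p = 5.56e-07) and −1.82 in CKO (adjusted p = 1.94e-05).

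Trim28, the corepressor that ZFP57 recruits, measured 23.7, 64.8, 36.2 and 34.5 CPM in GV WT and 229, 303 and 203 CPM in ovulated WT (log2 fold change 2.62, SE 0.38, edgeR adjusted p = 1.35e-05). In CKO it measured 96.9, 38.1, 29.7 and 38.8 CPM and then 248, 167 and 182 CPM (1.97, SE 0.38, adjusted p = 0.000331). Both changes lay within the error of those of Tet3. Without the 3 outlying GV libraries they were 2.94 in WT (adjusted p = 1.34e-07) and 2.53 in CKO (adjusted p = 5.36e-06). The highest GV value of each genotype lay in a library that stood apart, WT 2 and CKO 1, and was still below every ovulated library.

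**Figure D3:**
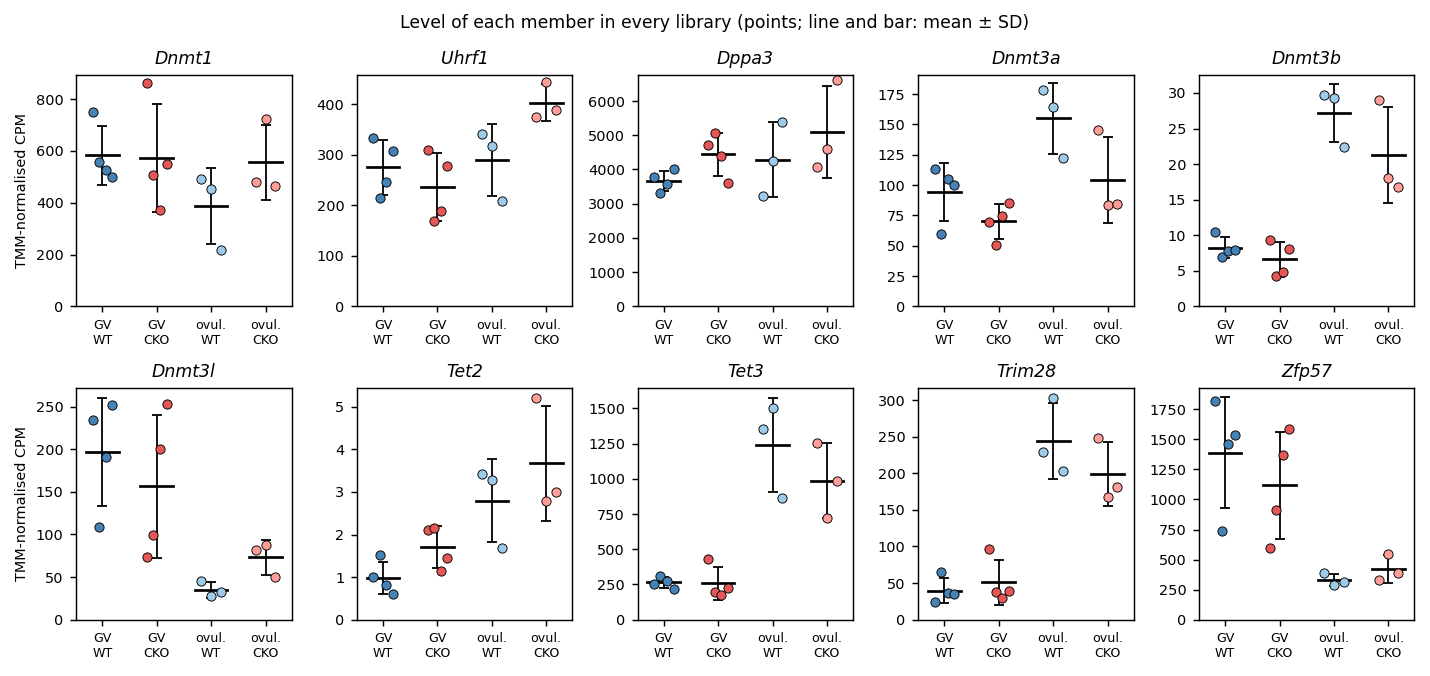
TMM-normalised CPM of each gene in every library (points), with the mean as a line and the SD as a bar, for 4 GV libraries and 3 ovulated libraries per genotype. The ovulated libraries lie above the GV libraries in Tet3, Trim28 and Dnmt3b and below them in Zfp57, and in Dnmt3l the 3 ovulated CKO points lie above the 3 ovulated WT points.

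Within a library, ratios of FPKM show these shifts without any scaling between libraries. For the DNA-binding and corepressor pair, Zfp57 to Trim28 was 143, 21.2, 75.0 and 82.9 in GV WT and 3.14, 1.75 and 2.87 in ovulated WT, with no overlap (exact permutation test of the log2 ratio, two-sided p = 0.0571). In CKO it was 11.8, 44.8, 85.7 and 76.0 and then 2.44, 6.25 and 3.95, again with no overlap (exact p = 0.0571). The cofactor to enzyme ratio of Dnmt3l to Dnmt3a was 11.9 to 16.0 in GV WT and 1.11 to 2.08 in ovulated WT (exact p = 0.0571), and 6.95 to 25.6 and 3.57 to 8.35 in CKO, which overlapped (exact p = 0.114). The ratio of Tet3 to Tet2 was 172 to 298 in GV WT and 331 to 424 in ovulated WT, and Dnmt1 to Uhrf1 was 1.02 to 1.63 in GV WT and 0.659 to 0.908 in ovulated WT (exact p = 0.0571 for each). The smallest p that 3 against 4 libraries can give is 0.0571, and over the 24 tests of 6 ratios none was under 0.05 after Benjamini-Hochberg adjustment (0.137 where the exact p was 0.0571). Ratios with Dnmt3a carry the uncertain length described above. For Dnmt3l the implied length was 1340 bases in ovulated CKO 2, the library with the ratio of 8.35, and 1521 to 1592 bases in the others. Ratios with Tet2 divide by a value near the limit of detection, 0.05 to 0.20 FPKM in GV WT and 0.20 to 0.45 FPKM in ovulated WT.

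**Figure D4:**
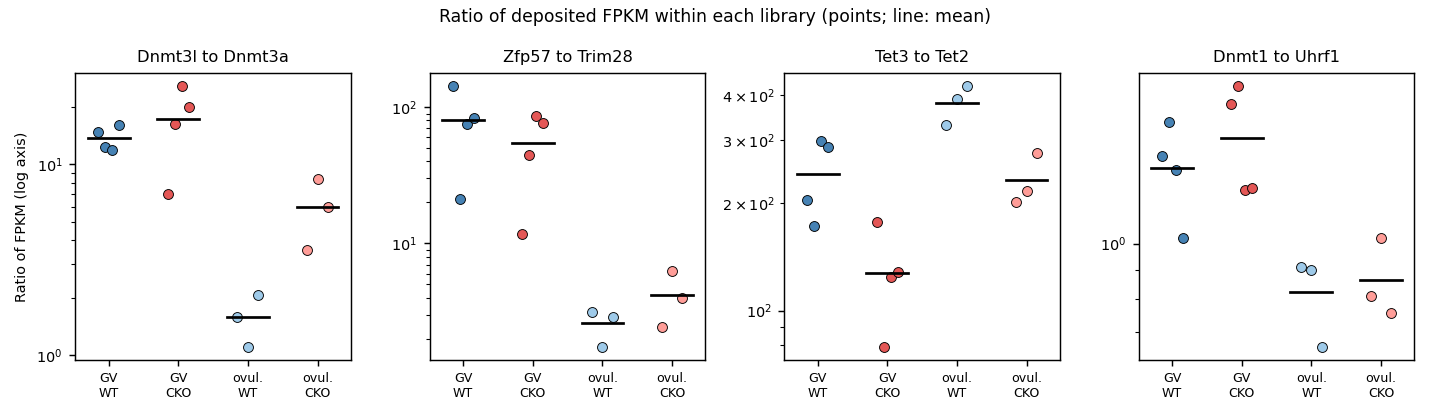
Ratio of the deposited FPKM of paired genes within each library on log axes, with the group mean as a line. Zfp57 to Trim28 falls from a mean of 80.5 in GV WT to 2.59 in ovulated WT, and Dnmt3l to Dnmt3a is 1.59 in ovulated WT and 5.98 in ovulated CKO.

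In GV oocytes, loss of Mff left none of the 10 members past the test: 0 were called, and 0.0163% of all 12298 genes were called, which is 2 genes (0.00813% higher and 0.00813% lower). Log2 fold changes of CKO over WT ran from −0.45 in Dnmt3a to 0.78 in Tet2, with a median of −0.13 against 0.03 over all genes, and the groups overlapped in all 10, with no overlap in 4.2% of all genes. At an unadjusted p under 0.05 there was 1 member, Tet2 (log2 fold change 0.78, SE 0.35, adjusted p = 0.744 in edgeR), and 6.66% of all genes. Intervals were wide: the 95% interval ran from −0.67 to 0.61 for Dnmt1, from −1.21 to 0.52 for Dnmt3l and from −0.51 to 1.25 for Trim28, so that of Dnmt1 holds neither −1 nor 1, while that of Dnmt3l holds −1 and that of Trim28 holds 1. DESeq2 and limma's quality weights also called 0 members, as did the fit without the 3 libraries that stood apart.

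In ovulated oocytes 1 of 10 members differed between the genotypes, and 7.84% of all 12010 genes were called. Dnmt3l was higher in CKO, at 73.0 ± 20.3 CPM against 34.8 ± 9.35 CPM in WT (SD, 3 libraries each). Its log2 fold change was 1.10 (SE 0.29, 95% interval 0.47 to 1.72, edgeR adjusted p = 0.0327). The lowest CKO library, at 49.8 CPM, lay just above the highest WT library, at 45.3 CPM. Rises were the common direction among all genes, 6.44% against 1.4% of falls. Dropping WT 2, WT 3, CKO 1 or CKO 2 ended the call (adjusted p = 0.126, 0.106, 0.0540 and 0.153), and so did dropping WT 3 and CKO 2 together (0.234), 1 fit over all libraries (0.101), limma's quality weights (0.0632) and log2(FPKM + 1) without a filter (0.159), while the log2 fold change stayed between 0.76 and 1.36 in every alternative run.

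The other 9 members did not pass the test in ovulated oocytes. Uhrf1 was the second member whose groups did not overlap (log2 fold change 0.51, SE 0.25, adjusted p = 0.229), and groups did not overlap in 29.1% of all genes. Dnmt1 was at 0.56 (SE 0.30, adjusted p = 0.287), with CKO 2 well above the rest. Dnmt3a was at −0.53 (SE 0.27, adjusted p = 0.257), and it was called with limma's quality weights (−0.77, adjusted p = 0.0265) and without CKO 1 (−0.85, adjusted p = 0.0489). The remaining 6 lay between −0.32 (Dnmt3b) and 0.43 (Tet2). Dnmt3l to Dnmt3a, at 1.59, 1.11 and 2.08 in WT and 3.57, 8.35 and 6.01 in CKO, did not overlap either (exact permutation p = 0.1, the smallest that 3 against 3 libraries allow, and 0.2 after adjustment). Tet3 to Tet2 did not overlap between these groups either, at 331 to 424 in WT and 201 to 276 in CKO (exact permutation p = 0.1, adjusted 0.2). Its denominator was low, with Tet2 at 0.20 to 0.45 FPKM in WT and 0.41 to 0.73 FPKM in CKO. The other 4 ratios overlapped. Other library properties differed between these groups too. A first principal component of the ovulated libraries, with 50.3% of the variance, lay at 38.9 to 62.6 in WT and at −85.4 to −14.1 in CKO. The 100 most abundant genes took 35.4% of counts in WT 3 and 25.0% in CKO 2, the pair left out together above. In the other ovulated libraries they took 29.5% to 30.5%. On library totals, the summed level of the granulosa and cumulus markers, 17 of 21 listed, was 970 to 1249 CPM in WT and 495 to 896 CPM in CKO. That of the blood, immune and stromal markers, 6 of 10 listed, was 82.6 to 139 CPM in WT and 54.9 to 104 CPM in CKO. The part of these library properties in the Dnmt3l result was not tested.

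**Figure D5:**
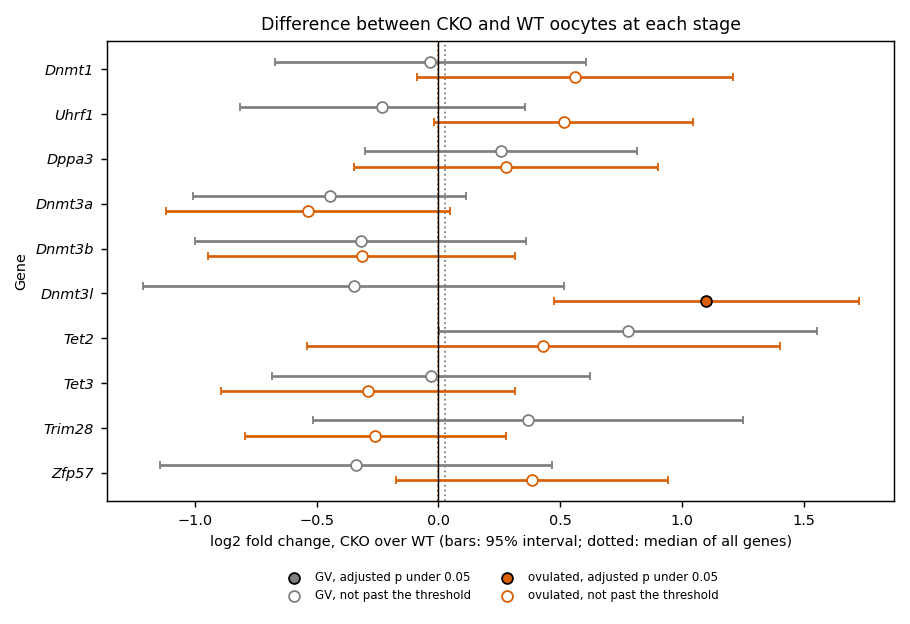
Log2 fold change of CKO over WT for each gene in GV and in ovulated oocytes, with 95% intervals; filled points passed the test. Dnmt3l in ovulated oocytes, at 1.10, is the only filled point.

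An interaction term asked whether the genotype effect itself differs between stages, and 0 of 10 members were called, with 3.26% of all 13199 genes called, 3.17% with a positive and 0.0833% with a negative term. Dnmt3l had the largest term, 1.40 (SE 0.54, 95% interval 0.26 to 2.54, edgeR adjusted p = 0.201). It was the only member at an unadjusted p under 0.05, as were 15.5% of all genes. Uhrf1 (0.70), Zfp57 (0.67) and Dnmt1 (0.55) had positive terms and Trim28 (−0.65) a negative one, with adjusted p between 0.399 and 0.596. DESeq2 and limma's quality weights also called 0 members. A difference of the Dnmt3l effect between GV and ovulated oocytes is thus not shown.

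The 3 genes whose levels followed Dnmt3l most closely over the 14 libraries were Plpp7 (r = 0.975), Gfm2 (r = 0.972) and the tubulin gene Tubb2a (r = 0.970). These are Pearson correlations of log2(CPM + 1) among genes with a mean of at least 5 CPM. The members, and genes with only a Gm, Rik or LOC name, were left out of this ranking. These points share libraries, stage and genotype, and the correlations are a description. Tubb2a, for example, averaged 923 CPM in GV WT, 563 CPM in GV CKO, and after ovulation 78.1 CPM in WT and 175 CPM in CKO.

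Other genes of the same pathways gave a wider view. Of 39 tested genes for methylation, demethylation and reading of the mark beyond the members, 18 rose and 7 fell from GV to ovulated in WT, with a median log2 fold change of 0.81, and 15 rose and 4 fell in CKO, with a median of 0.32. That is 64.1% and 48.7% called, against 66.4% and 54.4% of all genes, whose medians were −0.17 and −0.19. Hells, a chromatin remodeller needed for methylation of repeats, rose from 46.6 ± 3.50 to 227 ± 12.9 CPM in WT (2.28, SE 0.22, edgeR adjusted p = 1.24e-07) and by 1.40 in CKO. Ogt, the O-GlcNAc transferase that binds TET proteins, rose by 1.86 and Cul4a, a ubiquitin ligase scaffold, by 1.98 in WT. Falls in WT included Dmap1, a partner of DNMT1 (−5.18), Ahcy, which clears S-adenosylhomocysteine (−3.41), and Apex1, the endonuclease of base excision repair (−3.12). Between the genotypes 0 of 39 were called in GV oocytes and 1 in ovulated oocytes (2.56%, against 7.84% of all genes), the DNA glycosylase Neil3, which was lower in CKO (317 ± 99.7 against 685 ± 182 CPM, −1.09, adjusted p = 0.0347).

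Among 39 partners in imprint establishment and protection, 22 rose and 10 fell from GV to ovulated in WT (median 0.99) and 18 rose and 10 fell in CKO (median 0.84), or 82.1% and 71.8% called against 66.4% and 54.4% of all genes. Arid4a (2.02), the histone methyltransferase Ehmt1 (2.21) and the KRAB zinc finger gene Zfp568 (2.54) rose in WT. Falls included Padi6 (−5.12), Ooep (−3.78) and Nlrp2 (−2.39), genes of the subcortical maternal complex or its surroundings. In ovulated oocytes 3 of 38 tested partners (7.89%) were higher in CKO and 0 lower, close to the 7.84% called of all genes. Khdc3 averaged 18.1 ± 9.49 CPM in WT and 106 ± 57.7 CPM in CKO (log2 fold change 2.58, SE 0.45, edgeR adjusted p = 0.00286), Ooep 273 ± 32.7 and 840 ± 428 CPM (1.65, adjusted p = 0.00593), and Padi6 168 ± 12.1 and 491 ± 185 CPM (1.58, adjusted p = 0.00331). Khdc3 was also the only partner called in the interaction (3.85, SE 0.78, adjusted p = 0.0128). In GV oocytes 0 of 36 were called.

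Of 41 imprinted genes tested between stages, 18 rose and 9 fell in WT (median 0.67) and 14 rose and 10 fell in CKO (median 0.42), or 65.9% and 58.5% called against 66.4% and 54.4% of all genes. Igf2r, the maternally expressed receptor that clears IGF2, rose by 2.41 in WT and 1.83 in CKO, and Ube3a, a ubiquitin ligase imprinted in neurons, by 2.25 in WT. Commd1 fell by 2.79 and Ppp1r9a, a neuronal actin-binding protein, by 4.89 in WT. Between the genotypes 0 of 38 were called in GV oocytes and 1 of 36 in ovulated oocytes (2.78%, against 7.84% of all genes): Mest, a paternally expressed hydrolase gene, was lower in CKO (174 ± 60.2 against 475 ± 120 CPM, log2 fold change −1.42, SE 0.30, edgeR adjusted p = 0.00868). Gene counts carry no allele, so they say nothing of imprinting itself.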

How the data were processed

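Per the file headers, the deposited tables of each stage hold read counts and FPKM of every gene and library. The deposited counts are estimated counts without normalisation: 17.6% of GV and 18.3% of ovulated values above 0 were not whole (tolerance 0.001). The deposited FPKM are scaled to transcript length and mapped fragments, per the file headers. Per the labels' protocols, oocytes were lysed and first-strand cDNA was made with SMART-SeqII and preamplified by PCR. Reads were mapped to mm10, per the submitters' processing notes; aligner and counter: not given in the sources used here.

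Counts were rounded and fitted with edgeR 4.0.16 in R 4.3.3 (filterByExpr, TMM, robust quasi-likelihood F test), each stage alone for CKO against WT and all 14 libraries together for stage contrasts and the interaction. P-values were adjusted by the Benjamini-Hochberg method over all genes tested. SEs come from the F statistic and intervals from the t quantile. The fits were also run on simulated counts, drawn independently for each gene. Such counts hold no libraries that stand apart, and no result given here rests on them. Alternatives were RLE scaling, other filters, a replicate block, DESeq2 1.42.0, limma 3.58.1 (voom quality weights, and log2 FPKM with pseudocounts of 1 and 0.1 and a minimum of 0.5), removal of a length trend, and leaving out libraries. The members, gene lists and tests were chosen with earlier results of these data known. All 10 members are described; from each list up to 3 called genes per direction with the smallest p are named. The 10 symbols matched GENCODE transcripts by gene ID, taking the transcript with the longest 3′ UTR.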

Additional observations from a re-analysis of the deposited data

Results flagged for a closer look

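Trim28 in GV CKO was far higher in 1 library than in the other 3: CKO 1 measured 96.9 CPM and the others 29.7 to 38.8 CPM. Its gap to the next library was 0.864 of the group's range, above Dixon's 95% critical value for 4 libraries. This was the only such library in 20 checks (10 members in each of the 2 GV groups), and chance flags about 1 group in 20. CKO 1 is among the 3 GV libraries that stood apart. Without it, the GV difference of Trim28 between the genotypes was −0.21 on the log2 scale, against 0.37 with it, and neither passed the test. The part of this library's other differences was not tested.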

How the results depend on the processing

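The 10 members gave 1144 values under 27 settings, of which 1017 kept their direction and their side of the threshold, 78 changed sign, 32 lost a call and 17 gained one. In every alternative run, Dnmt3b, Tet3 and Trim28 were called higher after ovulation in both genotypes, and Dnmt3l and Zfp57 were called lower in WT. Limits: 3 or 4 libraries per group leave wide intervals, and about 50 counts or fewer in some libraries limit Tet2. The alternatives without the 3 GV libraries that stood apart, or without ovulated WT 3 and CKO 2, were chosen after seeing the data.

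The count of members called in ovulated CKO against WT, 1, became 0 on unfiltered log2(FPKM + 1), without ovulated WT 3 and CKO 2, and in 1 fit over all 14 libraries. Leaving out each library in turn gave 0 to 1, with 0 without WT 2, WT 3 or CKO 2. With quality weights and without CKO 1 the 1 member called was Dnmt3a, in place of Dnmt3l. The count from GV to ovulated in CKO, 7, ranged from 4 (without GV CKO 3) to 7 under leave-one-out, and in WT from 6 to 7. The causes were not tested.

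The count over all genes in GV, 2, was 4 without a filter, with the length trend removed or in 1 fit over all 14 libraries, 56 with DESeq2, 82 with limma's quality weights, 1 on unfiltered log2(FPKM + 1), 63 without the 3 GV libraries and 2 to 5 under leave-one-out. In ovulated oocytes, 942 became 506 at a mean of at least 10 CPM, 1630 with the replicate block, 1593 with DESeq2, 1856 with quality weights, 1 on unfiltered log2(FPKM + 1), 1595 in 1 fit over all libraries, 235 without ovulated WT 3 and CKO 2, and 341 (without CKO 2) to 1652 (without CKO 1) under leave-one-out. The share of these calls that was higher, 82.2%, was 65.5% with the block, 65.8% with quality weights, 71.3% with DESeq2, 65.9% with the length trend removed and 94.1% on log2(FPKM + 1). At a mean of at least 10 CPM the stage counts were 5155 in WT (8769) and 4458 in CKO (7183), with fewer genes tested. The share higher among stage calls, 45.5% in WT and 42.6% in CKO, was 56.0% and 60.2% on log2(FPKM + 1). The interaction count, 430, was 889 with DESeq2, 150, 219 and 46 on log2(FPKM + 1), log2(FPKM + 0.1) and unfiltered log2(FPKM + 1), 229 without the 3 GV libraries, 157 without ovulated WT 3 and CKO 2, and 129 (without ovulated CKO 2) to 1006 (without ovulated CKO 1) under leave-one-out.

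Scaling moved the median of all genes between the stages from −0.17 in WT and −0.19 in CKO to 0.21 and 0.27 on log2(FPKM + 1), and to −0.08 in CKO with RLE scaling. The Dnmt3l change in CKO was −0.35 on log2(FPKM + 1), beside that median of 0.27, and −1.10 in the edgeR fit with TMM factors, beside −0.19.

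Values that changed sign were those of changes not past the test, except Dnmt3a from GV to ovulated in WT, which went from 0.71 to −0.77 with the length trend removed (in CKO, from 0.58 to −0.60). Other changes with that trend removed were Dppa3 in ovulated CKO against WT (−0.45), Uhrf1 between stages in WT (−0.0074) and the interactions of Dnmt3a (0.17), Dnmt3b (0.069) and Tet3 (0.078). Dnmt1 in GV CKO against WT was 0.013 at a mean of at least 10 CPM, and 0.056, 0.055 and 0.056 on the log2 FPKM scales in the order named above; Tet3 was 0.0095, 0.020, 0.016 and 0.020. Between stages in CKO, Dnmt1 was 0.072 with RLE scaling, 0.090 without a filter, 0.072 with DESeq2, 0.22 with quality weights, 0.52 on each log2 FPKM scale and 0.26 without the 3 GV libraries. Between stages in WT, Uhrf1 was −0.12 at a mean of at least 10 CPM and −0.045 without the 3 GV libraries, and Dppa3 was −0.0076 with quality weights. The interaction of Dnmt3b was 0.052 with RLE scaling, 0.051 with DESeq2, 0.049 with quality weights, 0.012 without a filter, 0.093 at a mean of at least 10 CPM, 0.0027, 0.10 and 0.0027 on the log2 FPKM scales, 0.082 without the 3 GV libraries and 0.028 without ovulated WT 3 and CKO 2. That of Dppa3 was 0.047 with RLE scaling or DESeq2, 0.032 without a filter, 0.11 at a mean of at least 10 CPM, 0.35 with quality weights, 0.088 on each log2 FPKM scale, 0.17 without the 3 GV libraries and 0.31 without ovulated WT 3 and CKO 2. The interaction of Tet2 was 0.076 on unfiltered log2(FPKM + 1). Under leave-one-out, ranges that crossed 0 were −0.33 to 0.13 (Dnmt1), −0.44 to 0.11 (Tet3) and −0.21 to 0.73 (Trim28) in GV CKO against WT, −0.070 to 0.26 for Uhrf1 between stages in WT, −0.28 to 0.22 (Dnmt1) and −0.040 to 0.33 (Dppa3) in CKO, and −0.45 to 0.026 (Dnmt3a), −0.32 to 0.18 (Dnmt3b), −0.26 to 0.26 (Dppa3) and −0.50 to 0.074 (Tet3) for the interaction.

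Libraries of different genotype share replicate numbers. Deviations of same-numbered libraries correlated at −0.34, 0.24, 0.05 and 0.45 in GV and at 0.08, 0.02 and 0.20 in ovulated oocytes. Only WT 4 in GV and WT 3 in ovulated oocytes correlated best with the CKO library of the same number. With the replicate number as a block in edgeR, members called were 0 in GV and 1 in ovulated oocytes (Dnmt3l, adjusted p = 0.00336). Between stages they were 8 in WT (Dnmt1 added, −0.69, adjusted p = 0.0458) and 6 in CKO (Dnmt3l lost, −0.79, adjusted p = 0.0886), and 0 were called in the interaction.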
